A study of Mus musculus with 37 samples.

Results

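The mRNA levels of 10 genes of the NF-κB system were followed in bone marrow-derived macrophages (BMDMs) after activation of TLR4. They were the 5 Rel family subunits Nfkb1, Nfkb2, Rel, Rela and Relb, the inhibitors Nfkbia, Nfkbib, Nfkbie and Nfkbiz, and Tnfaip3. Members were chosen by gene symbol, and all 10 were found among the 24016 genes of the table. All 10 were also among the 10499 genes that reached at least 100 scaled reads in 1 or more WT libraries. PolyA RNA had been sequenced in 8 libraries, 1 for each of 2 genotypes at 0, 6, 24 and 48 h after KLA (Kdo2-Lipid A), the part of LPS that TLR4 recognizes. The macrophages were grown for 6 days with M-CSF from the bone marrow of male mice 6 to 9 weeks old, either C57BL/6J (WT) or Arntl-/-. The Arntl gene encodes the clock protein Bmal1, the deletion was on the C57BL/6 background, and it was carried by the mice rather than induced in culture. The study's text describes the WT mice both as littermates and as purchased C57BL/6J mice, so kinship of the genotypes was not settled. With 1 library per condition no difference has a replicate check and no p-value is given.

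NF-κB proteins act as dimers of Rel family subunits. Rela, Rel and Relb carry domains that activate transcription, whereas Nfkb1 and Nfkb2 are made as the precursors p105 and p100, which hold partner subunits in the cytoplasm and are processed to p50 and p52. IκBα, IκBβ and IκBε, encoded by Nfkbia, Nfkbib and Nfkbie, bind the dimers until IκB kinase marks them for degradation. Nfkbiz encodes IκBζ, a nuclear IκB-like protein that takes part in the induction of secondary response genes, and Tnfaip3 encodes A20, a ubiquitin-editing enzyme that limits signaling to IκB kinase. In macrophages several of these genes are themselves NF-κB targets, which gives the pathway negative feedback loops.

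Promoters of the members were searched for 2 motifs, the 10-base κB consensus and the E-box CACGTG, the element bound by Bmal1 with Clock, because several members are known NF-κB targets and the mice carry a deletion in the gene for Bmal1. The window was the 250 bases before the start of the RefSeq transcript in the table, read from mm9, and both strands were searched. A κB match lay in 6 of the 10 windows, compared with 4.46% of the windows of 10498 genes that passed the filter. An E-box lay in 2 of the 10, those of Relb and Tnfaip3, compared with 8.64%. The windows of the members had a median GC content of 65.6% and those of the filtered genes 60.4%. The last 130 bases before the start are shown for the 6 genes with a κB match, since they hold every match found, with the motif letters in capitals and the strand of the gene read 5′ to 3′.
Nfkb2 (chr19:46379097-46379226, plus strand): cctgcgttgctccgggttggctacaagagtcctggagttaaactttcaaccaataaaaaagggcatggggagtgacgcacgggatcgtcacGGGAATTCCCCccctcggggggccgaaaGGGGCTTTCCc
Rel (chr11:23670971-23671100, minus strand): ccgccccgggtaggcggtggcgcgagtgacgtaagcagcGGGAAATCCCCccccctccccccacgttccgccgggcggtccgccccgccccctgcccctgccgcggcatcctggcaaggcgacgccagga
Relb (chr7:20214788-20214917, minus strand): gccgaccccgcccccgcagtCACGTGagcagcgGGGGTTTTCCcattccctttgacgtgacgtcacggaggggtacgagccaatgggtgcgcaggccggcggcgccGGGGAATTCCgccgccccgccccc
Nfkbia (chr12:56593635-56593764, minus strand): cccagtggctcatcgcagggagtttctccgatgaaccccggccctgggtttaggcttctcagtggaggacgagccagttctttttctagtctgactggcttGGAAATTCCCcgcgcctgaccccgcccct
Nfkbie (chr17:45692535-45692664, plus strand): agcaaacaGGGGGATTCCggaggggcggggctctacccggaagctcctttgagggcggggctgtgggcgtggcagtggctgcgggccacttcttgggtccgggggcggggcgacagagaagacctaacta
Tnfaip3 (chr10:18735217-18735346, minus strand): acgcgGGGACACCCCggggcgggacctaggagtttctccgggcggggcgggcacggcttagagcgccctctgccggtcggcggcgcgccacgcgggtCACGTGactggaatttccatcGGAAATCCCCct
The capitals of Nfkb2 at positions -39 to -29 and of Rel at -91 to -81 are each 2 matches that overlap on opposite strands, counting back from the start. In Relb the E-box lies at -110 to -105 and the nearer κB match at -97 to -88. In Tnfaip3 it lies at -33 to -28 and the nearer κB match at -12 to -3. Nfkb1, Rela, Nfkbib and Nfkbiz had no match to either motif in this window. GENCODE lists 8 starts for Nfkb1 and 3 for Nfkbiz, and windows before the other starts were not searched. A match is a match of letters only, and binding of p65 or Bmal1 was not analysed here.

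**Figure D1:**
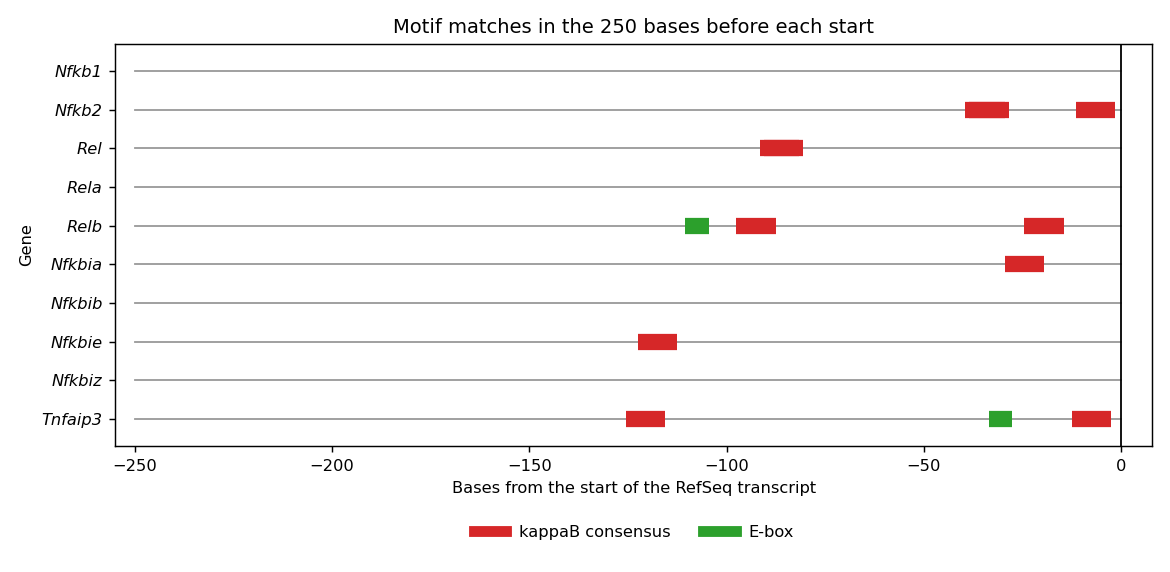
Positions of motif matches in the 250 bases before the start of each gene's RefSeq transcript (x axis, bases from the start; y axis, the 10 genes). Red marks κB consensus matches, with overlapping matches merged to the eye, and green marks E-boxes; Nfkb1, Rela, Nfkbib and Nfkbiz have neither.

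The deposited FPKM values fell on whole multiples of 1 read, from which each library was found to hold 8587560 to 27036783 reads on genes, with WT BMDMs at 6 h the deepest and both 48 h libraries the shallowest. Values were divided by size factors between 0.909 and 1.11 and are called scaled FPKM, per 10000000 reads. Error ranges are 95% intervals for the counting of reads only. Both mates of a read pair may be counted, so the true counting error may be larger. Arntl was at 32.6 to 39.1 in WT libraries and at 11.4 to 20.4 in Arntl-/- libraries, so the groups did not overlap. Its level was 0.353 to 0.530 of WT, so reads on the gene were reduced and not absent, and values over the whole gene do not show the deleted part alone. Macrophage markers, all 9 of those in the table past the filter, summed to 21636, 16198, 28349 and 39599 at 0, 6, 24 and 48 h in WT and to 18199, 21869, 26511 and 35527 in Arntl-/- BMDMs. Of 5 T-cell markers Cd3e and Cd3g were at 0 in all libraries and Cd247 passed the filter, with sums of 14.2 to 23.0 in WT and 15.2 to 23.8 in Arntl-/- BMDMs. The 5 B-cell markers, none of which passed the filter, summed to 21.4 to 37.4 and 28.4 to 60.8, and Cd79b was the highest. Of 8 granulocyte markers Mpo and Ctsg were at 0 in all libraries. Stromal markers, 6 of 9 of which passed the filter and among which Col1a1 was highest, summed to 427, 518, 583 and 1117 at 0, 6, 24 and 48 h in WT BMDMs and to 342, 370.2, 415 and 702 in Arntl-/- BMDMs. The granulocyte markers summed to 341 to 927 in WT and 504 to 944 in Arntl-/- BMDMs. Each genotype was highest in the macrophage, stromal and granulocyte sums at 48 h. The granulocyte sum followed S100a8 (311 at 0 h and 919.5 at 48 h in WT, 405 and 914 in Arntl-/- BMDMs), whereas Ngp went from 37.5 to 0 and from 84.3 to 2.72 and Ltf from 19.1 and 42.9 to 0, and Camp went from 0 to 7.66 and from 12.5 to 26.5. The part of these markers in the 48 h values below was not tested. In such bulk RNA, fewer cells of a type and less RNA per cell cannot be told apart.

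Both precursor subunits were highest at 24 h in each genotype. Nfkb2 (chromosome 19 of mm9, 46379227 to 46386580) was at 237, 312, 522 and 328 scaled FPKM in WT BMDMs at 0, 6, 24 and 48 h, and at 286, 353, 489.9 and 394 in Arntl-/- BMDMs. The 0 h value was the lowest in both genotypes and the order over time was the same. From 0 to 24 h it rose 2.20-fold in WT (counting interval 2.07 to 2.35) and 1.71-fold in Arntl-/- BMDMs (1.63 to 1.80), on log2 1.14 and 0.78. Nfkb1 (chromosome 3, 135247619 to 135354511) was at 288, 339, 374 and 303 in WT and 323, 333, 407 and 272 in Arntl-/- BMDMs. Its 24 h change was 0.38 on log2 in WT and 0.34 in Arntl-/- BMDMs, and no change of Nfkb1 from 0 h reached 1.5-fold. The level of Nfkb2 relative to Nfkb1 was 0.824, 0.923, 1.39 and 1.09 in WT BMDMs and 0.887, 1.06, 1.20 and 1.45 in Arntl-/- BMDMs at the 4 times. Thus Nfkb2 mRNA was the lower of the 2 at 0 h and the higher at 24 and 48 h in both genotypes. In WT BMDMs at 48 h the counting intervals of the 2 genes overlapped.

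Among the Rel proteins, Rela never reached 1.5-fold, Relb reached it once and Rel was lowest at 48 h. Rela, the p65 subunit (chromosome 19, 5637490 to 5648130), was at 297, 290.0, 361 and 374 scaled FPKM in WT and 272, 304, 379 and 355 in Arntl-/- BMDMs. Both late values were above both early values in each genotype, by 1.22-fold at 24 h in WT and 1.39-fold in Arntl-/- BMDMs. Relb, the partner of p52 in the non-canonical pathway (chromosome 7, 20191571 to 20214787), was at 202, 201, 267 and 228 in WT and 194, 222, 292 and 248 in Arntl-/- BMDMs. Relb passed 1.5-fold only in Arntl-/- BMDMs at 24 h (1.51-fold, 1.40 to 1.62), a call that was lost with FPKM as deposited, upper-quartile scaling and the lowess correction, and its WT value was 1.32-fold (1.21 to 1.45). Rel, the c-Rel subunit (chromosome 11, 23641729 to 23670970), had the lowest level of all 10 members in every library. It was at 67.1, 60.1, 72.7 and 32.7 in WT and at 69.7, 58.3, 81.9 and 50.1 in Arntl-/- BMDMs. The 48 h value was the lowest in both genotypes, from 111 reads in WT and 164 in Arntl-/- BMDMs. It fell to 0.488 of the 0 h level in WT BMDMs (0.390 to 0.604), and was 0.720 of it in Arntl-/- BMDMs (0.601 to 0.858), which did not pass 1.5-fold but did with FPKM as deposited (log2 -0.65). Against 24 h, the 48 h level of Rel was 0.450 (0.359 to 0.560) in WT and 0.613 (0.511 to 0.731) in Arntl-/- BMDMs.

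**Figure D2:**
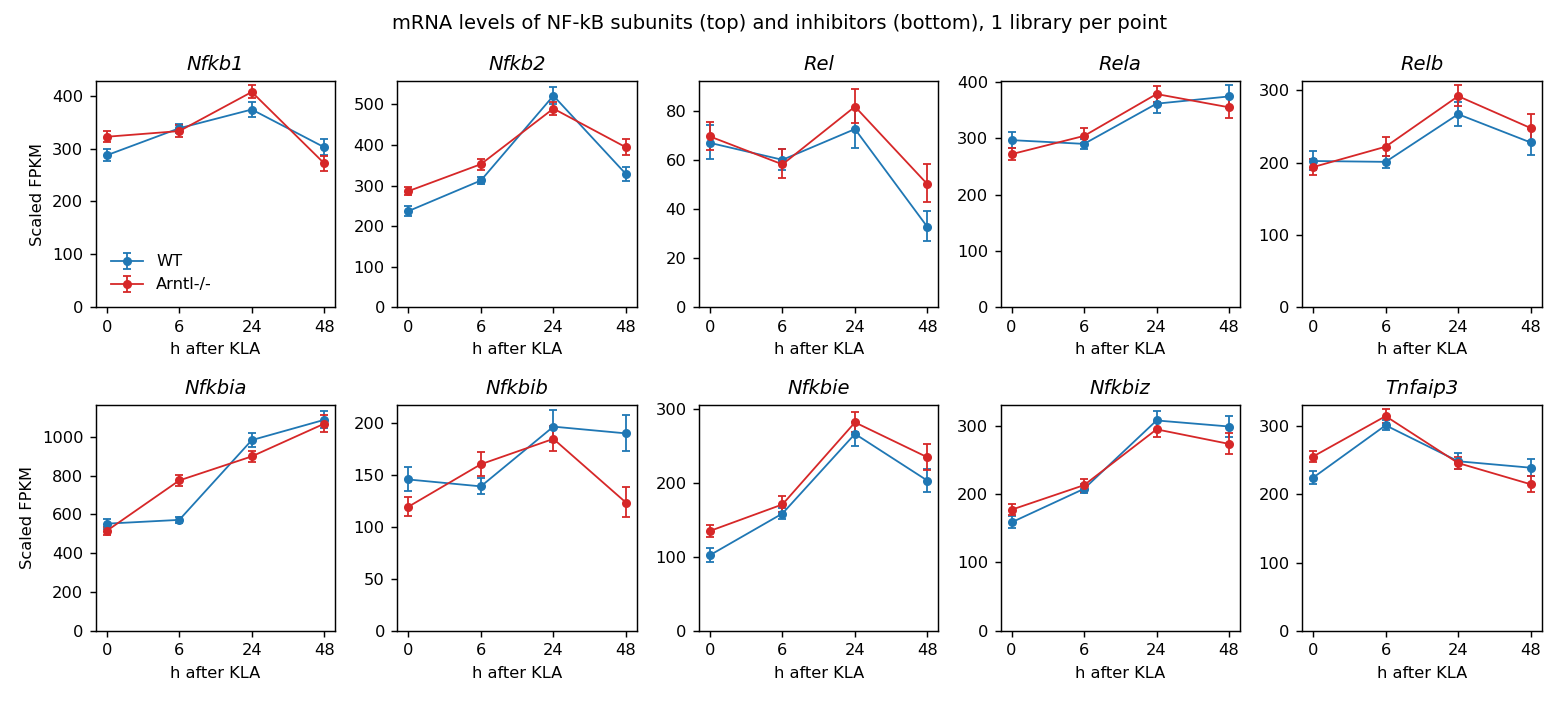
Scaled FPKM (y axis, linear from 0) of the 10 genes in each library at 0, 6, 24 and 48 h after KLA (x axis, evenly spaced), WT in blue and Arntl-/- in red, with 95% counting intervals and 1 library per point. Nfkb2, Nfkbie and Nfkbiz peak at 24 h in both genotypes, Tnfaip3 at 6 h and Nfkbia at 48 h, and Rel is lowest at 48 h.

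Of the inhibitor genes, Nfkbia, Nfkbie and Nfkbiz rose at 24 and 48 h in both genotypes. Nfkbia (chromosome 12, 56590396 to 56593634), the classic feedback inhibitor, had the highest level of all members in every library. It was at 553, 572, 984 and 1088 scaled FPKM in WT and at 516, 776, 899.5 and 1068 in Arntl-/- BMDMs. It rose 1.78-fold (1.68 to 1.89) at 24 h and 1.97-fold (1.85 to 2.10) at 48 h in WT BMDMs, and 1.74-fold (1.66 to 1.84) and 2.07-fold (1.95 to 2.20) in Arntl-/- BMDMs. The genotypes diverged at 6 h, where the log2 change was 0.05 (-0.03 to 0.13) in WT and 0.59 (0.51 to 0.67) in Arntl-/- BMDMs. At that time Nfkbia had a mean of 2.77 tags per exon base in the WT library and 1.95 in the Arntl-/- library. In the same WT library the chemokine gene Ccl2 had a mean above 3, since its level was 1864 scaled FPKM against 572 for Nfkbia. The deposited header sets a limit of 3 tags per position, which these means do not measure. The part of this limit in the Nfkbia values was not tested. The summed macrophage markers, which include abundant genes such as Lyz2, Csf1r and Cd68, were likewise lower in WT than in Arntl-/- BMDMs at 6 h (16198 and 21869) and highest at 48 h in both genotypes, and their part in the Nfkbia values was not tested. After a lowess correction for expression level the log2 changes at 6 h were 0.36 in WT and 0.42 in Arntl-/- BMDMs in place of 0.05 and 0.59, and the Arntl-/- call at 6 h was also lost with FPKM as deposited and upper-quartile scaling. The same correction put the 24 h change above the 48 h change (0.74 against 0.72 in WT, 0.67 against 0.66 in Arntl-/- BMDMs), so the time of the highest Nfkbia level depends on it.

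Nfkbie (chromosome 17, 45692665 to 45700117) had the largest increase of the 10. Its levels were 102, 159, 267 and 203 scaled FPKM in WT and 135, 171, 282 and 235 in Arntl-/- BMDMs. All later values were above 0 h in both genotypes, with 24 h the highest. In WT BMDMs it rose 1.55-fold (1.41 to 1.71) at 6 h, 2.60-fold (2.34 to 2.90) at 24 h and 1.98-fold (1.77 to 2.23) at 48 h. In Arntl-/- BMDMs it was 1.27-fold (1.16 to 1.38) at 6 h and rose 2.09-fold (1.93 to 2.26) and 1.74-fold (1.58 to 1.91) at 24 and 48 h, from a 0 h level that was 1.32 times that of WT (1.19 to 1.47). Nfkbib (chromosome 7, 29543270 to 29551543), whose product IκBβ is degraded and replaced more slowly than IκBα, was at 146, 139, 197 and 190.1 in WT and at 119, 160.4, 185 and 123 in Arntl-/- BMDMs. Its 48 h level stayed close to the 24 h level in WT (0.967, 0.857 to 1.09), whereas in Arntl-/- BMDMs it was 0.668 of it (0.585 to 0.762). Only the Arntl-/- change at 24 h passed 1.5-fold (1.55-fold, 1.40 to 1.71), and that call was lost with FPKM as deposited.

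Nfkbiz (chromosome 16, 55811490 to 55822251) was at 159, 208, 308 and 299 scaled FPKM in WT and at 177, 213, 295 and 273 in Arntl-/- BMDMs. Levels at 24 and 48 h were above those at 0 and 6 h in both genotypes. The gene rose 1.94-fold (1.80 to 2.09) and 1.88-fold (1.74 to 2.04) at 24 and 48 h in WT, and 1.66-fold (1.57 to 1.76) and 1.54-fold (1.44 to 1.66) in Arntl-/- BMDMs, the last of which was lost with FPKM as deposited. Tnfaip3 (chromosome 10, 18720717 to 18735216) was at 225, 301, 249 and 239 in WT and at 256, 315, 246 and 215 in Arntl-/- BMDMs. It was the only member highest at 6 h, in both genotypes, and none of its changes from 0 h reached 1.5-fold. Its 6 h change was 1.34-fold (1.28 to 1.41) in WT and 1.23-fold (1.17 to 1.29) in Arntl-/- BMDMs.

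Counted over the members, 1 of 10 rose at least 1.5-fold in WT BMDMs at 6 h (Nfkbie), against 5.39% of the 10499 genes. At 24 h 4 rose (Nfkb2, Nfkbia, Nfkbie and Nfkbiz), against 8.7%, and at 48 h 3 rose (Nfkbia, Nfkbie and Nfkbiz), against 13.5%. In Arntl-/- BMDMs 1 member rose at 6 h (Nfkbia), against 3.1%, 6 at 24 h (the 4 of WT with Relb and Nfkbib), against 7.79%, and 3 at 48 h (Nfkbia, Nfkbie and Nfkbiz), against 15.2%. Counted in either direction, Rel in WT BMDMs at 48 h was the only member that fell, and with FPKM as deposited Rel also fell in Arntl-/- BMDMs at 48 h. The share of all genes past 1.5-fold in either direction was 8.97%, 17.5% and 28.6% in WT and 6.5%, 17.4% and 32.5% in Arntl-/- BMDMs at 6, 24 and 48 h. The median log2 change of the members was 0.14, 0.42 and 0.36 in WT and 0.28, 0.61 and 0.37 in Arntl-/- BMDMs, whereas the median of all genes lay between -0.03 and 0.01. At 6 h the order of the genotypes turned with FPKM as deposited (0.30 in WT and 0.22 in Arntl-/- BMDMs) and the lowess correction (0.35 and 0.22). With upper-quartile scaling it stayed (0.19 and 0.25). For the 5 inhibitors the medians were 0.39, 0.83 and 0.91 in WT and 0.34, 0.73 and 0.63 in Arntl-/- BMDMs. For the 5 subunits they were -0.01, 0.38 and 0.17 in WT and 0.16, 0.48 and 0.35 in Arntl-/- BMDMs. The changes within a genotype share its 0 h library, so they are not independent of each other. Of the 6 genes with a κB match before the start, Nfkb2, Nfkbia and Nfkbie rose at 24 h in both genotypes and Relb in Arntl-/- BMDMs, and Rel and Tnfaip3 did not reach 1.5-fold at that time. Nfkbiz rose at 24 h in both genotypes without a match in the window searched.

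**Figure D3:**
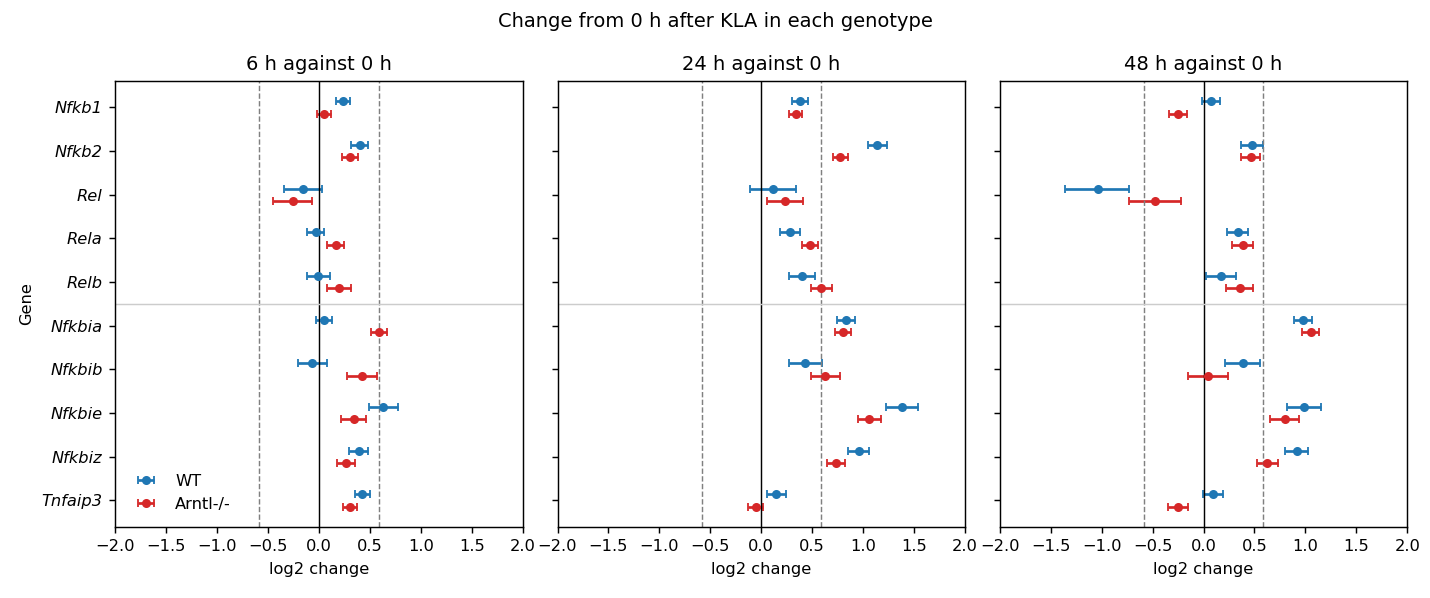
Log2 change from 0 h (x axis) of each gene (y axis, subunits above the grey line, inhibitors below) at 6, 24 and 48 h after KLA, WT in blue and Arntl-/- in red, with 95% counting intervals. Dashed lines mark 1.5-fold; the points of Nfkbia, Nfkbie and Nfkbiz lie beyond it at 24 and 48 h in both genotypes, and only Rel in WT at 48 h lies beyond it on the left.

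Comparison of the genotypes at equal times addressed whether loss of Bmal1 altered the components of the pathway. No member differed by 1.5-fold at 0, 6 or 24 h, where 5.21%, 4.69% and 6.75% of all genes did. The ratios of Arntl-/- to WT ranged on log2 from -0.29 (Nfkbib) to 0.40 (Nfkbie) at 0 h, from -0.05 (Rel) to 0.44 (Nfkbia) at 6 h and from -0.13 (Nfkbia) to 0.17 (Rel) at 24 h. Nfkbia at 6 h was 1.36 times the WT level (1.29 to 1.42), and its log2 ratio of 0.44 became 0.12 after the lowess correction. At 48 h 2 of 10 members passed 1.5-fold, against 11.7% of all genes. Rel was 1.53 times the WT level (1.20 to 1.97) and Nfkbib 0.650 of it (0.561 to 0.751). The Nfkbib call was lost with FPKM as deposited (log2 -0.58). The median over members was 0.11, 0.09, 0.03 and -0.05 at the 4 times, and that of all genes was between -0.02 and 0.01. With FPKM as deposited the 6 h median became -0.05, beside -0.13 for all genes. Rela was 0.916 of the WT level at 0 h (0.859 to 0.976), and its intervals included equal levels at 6, 24 and 48 h, for example 0.984 to 1.12 at 24 h. Nfkb2 was 1.21 times the WT level at 0 h (1.13 to 1.29), 0.939 at 24 h (0.893 to 0.988) and 1.20 at 48 h (1.11 to 1.29), so the genotypes changed order. Relb and Tnfaip3, the 2 genes with an E-box, had log2 ratios of -0.06, 0.14, 0.13 and 0.12 and of 0.19, 0.06, -0.02 and -0.15 at 0, 6, 24 and 48 h.

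**Figure D4:**
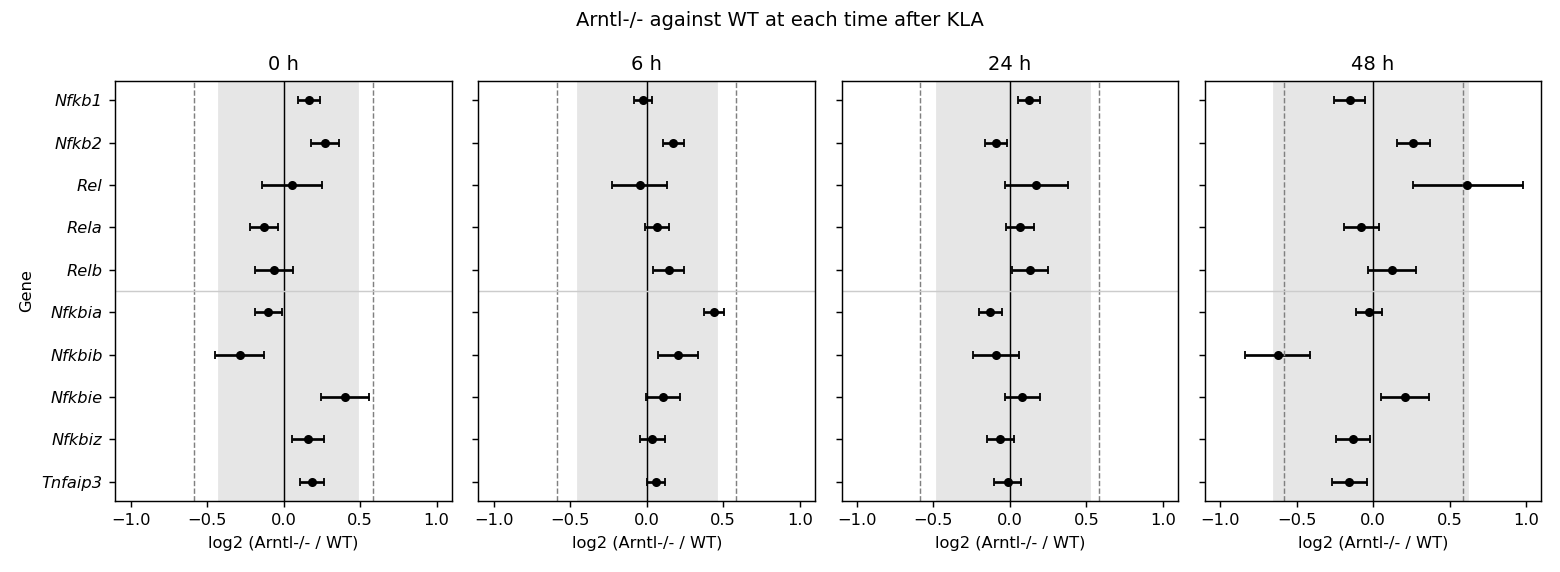
Log2 ratio of Arntl-/- to WT (x axis) for each gene (y axis, subunits above the grey line) at 0, 6, 24 and 48 h after KLA, with 95% counting intervals. Grey bands span the 5th to 95th percentile of the 10499 filtered genes and dashed lines mark 1.5-fold; Rel and Nfkbib at 48 h are the only members beyond the dashed lines.

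FPKM is divided by exon length, which allows levels of different genes to be added. The 5 subunits summed to 1090.3, 1202, 1597 and 1266 scaled FPKM in WT and 1144, 1270.3, 1649.6 and 1319 in Arntl-/- BMDMs. The sum of the 3 cytoplasmic IκB genes Nfkbia, Nfkbib and Nfkbie was 801, 870.0, 1447 and 1482 in WT and 770.4, 1107, 1367 and 1427 in Arntl-/- BMDMs. Subunit mRNA was thus highest at 24 h, whereas IκB mRNA was highest at 48 h in both genotypes, an order that follows Nfkbia, whose 48 h level depends on the lowess correction as given above. IκB mRNA per subunit mRNA was 0.734, 0.724, 0.906 and 1.17 in WT and 0.674, 0.872, 0.828 and 1.08 in Arntl-/- BMDMs. The 6 h values also follow Nfkbia, whose log2 genotype ratio of 0.44 at 6 h became 0.12 after the lowess correction. The sums were not recomputed with that correction. Nfkbia made up 65.8 to 73.4% of the IκB sum in WT and 65.8 to 74.9% in Arntl-/- BMDMs. The share of Rel in the subunit sum went from 6.15% at 0 h to 2.58% at 48 h in WT and from 6.09% to 3.80% in Arntl-/- BMDMs. In WT BMDMs Nfkb2 held 21.7% of the subunit sum at 0 h and 32.7% at 24 h, and in Arntl-/- BMDMs 25.0% and 29.7%.

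**Figure D5:**
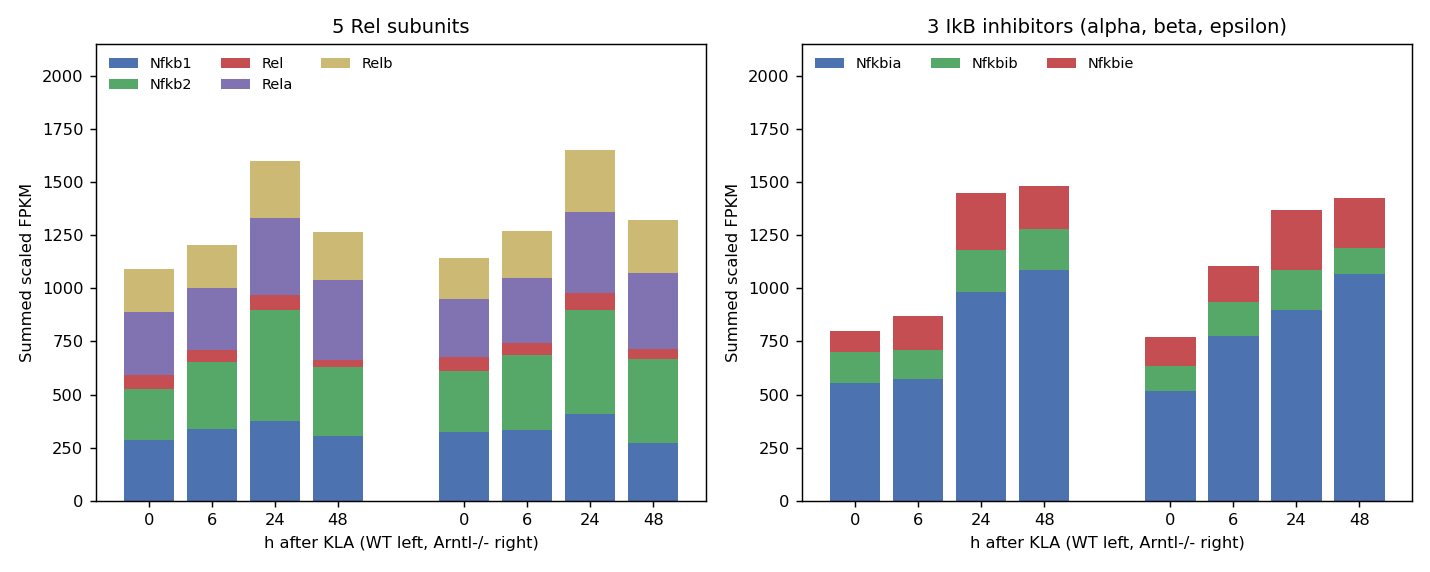
Summed scaled FPKM (y axis, linear from 0) of the 5 Rel subunits (left) and of Nfkbia, Nfkbib and Nfkbie (right) in each library, at 0, 6, 24 and 48 h after KLA for WT and then Arntl-/-, each colour 1 gene. The subunit bars are tallest at 24 h (1597 and 1649.6) and the IκB bars at 48 h (1482 and 1427), and most of the IκB sum is Nfkbia.

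By mean level over the 8 libraries Nfkbia stood at the 94.9th percentile of the filtered genes and Rel at the 29.1st. In WT BMDMs at 0 h Nfkbia was followed by Rela, Nfkb1, Nfkb2, Tnfaip3, Relb, Nfkbiz, Nfkbib, Nfkbie and Rel. The counting intervals overlapped between the neighbours Rela and Nfkb1, Nfkb2 and Tnfaip3, Tnfaip3 and Relb, and Nfkbiz and Nfkbib. At 24 h Nfkb2 held the second place in both genotypes and Nfkbie had passed Tnfaip3, with overlapping intervals in WT BMDMs. Exons of Nfkb2 share 4 bases with Psd on the opposite strand, and reads were counted without regard to strand. No other member shared exon bases with another gene.

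Some genes outside the family had nearly the same pattern over the 8 libraries, which include both the time course and differences in depth. The genes most like Nfkbie were Pstpip2 (Pearson's r = 0.999) and Camta2 (r = 0.987). Closest to Nfkbia were Irg1 (r = 0.993) and Cxcl16 (r = 0.991). For Nfkb2 they were Marf1 (r = 0.987) and Ftsj1 (r = 0.984), and for Rel they were Clasp2 (r = 0.982) and Aldh3a2 (r = 0.972). Pstpip2, which encodes an adaptor of the actin cytoskeleton, was at 147, 223, 361 and 273 scaled FPKM in WT and 191, 242, 382 and 323 in Arntl-/- BMDMs. Irg1, which encodes the enzyme that makes itaconate, was at 1040.3, 1215, 2195 and 2749.9 in WT and 1018, 1813, 2159 and 2730.1 in Arntl-/- BMDMs. Irg1 was chosen for its likeness to Nfkbia over these same libraries, so its pattern is a description. In all, 51 genes reached r of 0.95 with Nfkbie and 92 with Nfkbia.

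The genes upstream of the IκB proteins are given as counts. Of 16 genes for IκB kinases and the kinases and ubiquitin ligases that activate them, 0 rose and 0 fell in WT BMDMs at 6 h and 1 rose at 24 h. In Arntl-/- BMDMs 1 fell at 6 h and 0 passed 1.5-fold at 24 h. At 48 h 2 rose and 1 fell in WT and 1 rose in Arntl-/- BMDMs, and 0 of 16 differed by 1.5-fold between the genotypes at any time. Over all genes the share changed in either direction was 8.97%, 17.5% and 28.6% in WT, 6.5%, 17.4% and 32.5% in Arntl-/- BMDMs and 4.69 to 11.7% between genotypes, so these counts of 16 were near or below that share. The median log2 change of the list was 0.09, 0.14 and -0.13 in WT BMDMs at 6, 24 and 48 h and -0.11, 0.06 and -0.07 in Arntl-/- BMDMs. The largest changes in WT at 6 h were those of Rnf31, the catalytic subunit of the linear ubiquitin ligase (72.9 to 103 scaled FPKM, log2 0.49), and Map3k14, the NIK kinase that drives p100 processing (84.4 to 115, 0.45). The lowest was that of Tab1, an activator of TAK1 (58.4 to 43.1, -0.44). At 24 h Map3k14 (64.4 in WT and 88.6 in Arntl-/- BMDMs, log2 ratio 0.46) and Sharpin, of the same ubiquitin ligase as Rnf31 (229 and 302, 0.40), had the highest genotype ratios and Map3k8, the Tpl2 kinase (122 and 107, -0.19), the lowest.

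Of 17 other IκB-like proteins, partners of A20 and further brakes on the pathway, 16 were in the table and passed the filter. In WT BMDMs 1, 2 and 1 rose and 0, 1 and 1 fell at 6, 24 and 48 h, and in Arntl-/- BMDMs 1, 2 and 2 rose and 0, 2 and 3 fell. Between genotypes 1 was higher in Arntl-/- BMDMs at 0 h and 1 at 48 h. These counts of 16 were near or below the shares of all genes that rose (5.39%, 8.7% and 13.5% in WT, 3.1%, 7.79% and 15.2% in Arntl-/- BMDMs) or changed at the same times. Nkrf, a repressor that binds DNA beside NF-κB, went from 12.3 to 19.3 scaled FPKM in WT at 6 h (log2 0.65) and was at 3.02 in WT and 4.34 in Arntl-/- BMDMs at 48 h, from 13 and 18 reads. It was followed at 6 h by Nfkbid, the nuclear IκBNS (118 to 152, 0.37). Tax1bp1, an adaptor of A20, was lowest (512 to 436, -0.23). At 24 h Nfkbid (134 in WT and 155 in Arntl-/- BMDMs, 0.21) and Bcl3, a nuclear partner of p50 and p52 (303 and 344, 0.19), had the highest genotype ratios, and Otud7b, a deubiquitinase related to A20, the lowest (31.8 and 28.1, -0.18).

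Many textbook target genes of NF-κB rose. Of 28 listed, 25 passed the filter, and Il6, Il12b and Csf2 did not. In WT BMDMs 9, 16 and 13 of 25 rose and 0, 2 and 1 fell at 6, 24 and 48 h. Of all genes 5.39%, 8.7% and 13.5% rose. In Arntl-/- BMDMs 11, 13 and 9 rose and 0, 3 and 3 fell, where 3.1%, 7.79% and 15.2% of all genes rose. Their median log2 change was 0.47, 0.74 and 0.60 in WT and 0.56, 0.68 and 0.26 in Arntl-/- BMDMs. Between genotypes 4, 2, 3 and 3 were higher in Arntl-/- BMDMs at 0, 6, 24 and 48 h, where 3.22%, 2.03%, 3.62% and 5.75% of all genes were higher. Of the list 4 were lower, all at 48 h. In either direction 5.21%, 4.69%, 6.75% and 11.7% of all genes differed at the 4 times. The median log2 genotype ratio of the list was 0.15, 0.30, 0.04 and -0.01 at the 4 times. It was not recomputed with the lowess correction. Summed macrophage markers were likewise lower in WT than in Arntl-/- BMDMs at 6 h (16198 and 21869). Whether the 6 h value of the list shares this difference was not tested. Nos2, the inducible nitric oxide synthase, was at 12.0, 106, 117 and 276 scaled FPKM in WT and 31.8, 137, 277 and 529 in Arntl-/- BMDMs. Every Arntl-/- value of Nos2 was above the WT value of the same time, with a log2 ratio of 1.25 at 24 h. Il1a, which encodes interleukin-1α, was at 29.2 in WT and 55.2 in Arntl-/- BMDMs at 24 h (0.92), and the chemokine gene Ccl2 had the lowest ratio of the list (1227 and 1006, -0.29). Cxcl10, which encodes a chemokine for T cells, went from 75.3 to 344 in WT at 6 h (2.19) and from 89.9 to 469 in Arntl-/- BMDMs (2.38). Ccl2 went from 2439 to 1864 in WT at 6 h (-0.39), but from 2183 to 2540 in Arntl-/- BMDMs (0.22).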

How the data were processed

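The 8 polyA RNA-seq libraries were used, and the ChIP-seq experiments were not analysed here. Read pairs had been mapped by the authors with STAR (mm9). Per the file headers, HOMER then counted exon tags of RefSeq transcripts regardless of strand, no more than 3 at a position, and retained 1 transcript for each gene. By that header the deposited FPKM are those tags per kb of exon and per 10000000 reads. The labels also name a count normalization by size factors, but size factors computed from the deposited values still ranged from 0.909 to 1.11, where values already divided by such factors would give about 1. From the table, 1 fragment line and 4 value columns of no sample were left out. Members and lists were chosen with earlier results of these data known.

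Reads were recovered from FPKM multiplied by exon length (at least 99.9886% whole within 0.05 of a read), with 8587560 to 27036783 per library. Each library was scaled by a size factor, the median of its ratios to the geometric mean of the 8. Log2 ratios used a pseudocount of 0.1. Intervals at 95% were exact, conditional binomial for ratios and Poisson for levels. A gene was called past 1.5-fold, the size drawn in the study's plots, with no test. The background was all genes with at least 100 scaled reads in 1 or more WT libraries. Alternatives were FPKM as deposited, upper-quartile scaling, a lowess correction (fraction 0.3) for expression level, pseudocounts of 1 and 0.01 and other filters.

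Other genes were named by rule, as the 2 largest and the 1 smallest ratios of each list in WT at 6 h and between genotypes at 24 h, and the 2 genes with the highest Pearson correlation to each member whose levels spanned at least 2-fold. Promoter windows were read from the mm9 sequence, in which 23954 of the 24016 genes lay within a chromosome. The starts of the 10 members lay within 10 bases of a GENCODE start, and those of other genes were not compared. The steps were tested on simulated data. Python 3.11.15 was used with scipy 1.17.1, statsmodels 0.14.6, numpy 2.4.6, pandas 2.3.3 and, for plots, matplotlib 3.10.9.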

Additional observations from a re-analysis of the deposited data

Results flagged for a closer look

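For 5 members the change from 0 h had opposite signs in the 2 genotypes. The difference was not tested, since each value rests on 1 library per condition, and none of these changes reached 1.5-fold. At 6 h the log2 change of Nfkbib, the IκBβ gene, was -0.067 in WT and 0.42 in Arntl-/- BMDMs. Rela was at -0.033 and 0.16 and Relb at -0.0084 and 0.20 at the same time, where the WT library was the deepest of the 8. At 24 h Tnfaip3 was at 0.15 in WT and -0.055 in Arntl-/- BMDMs. At 48 h it was at 0.091 and -0.25, and Nfkb1 was at 0.074 and -0.25. With FPKM as deposited the sign in WT turned to that of Arntl-/- BMDMs for Rela (0.12), Relb (0.15) and Nfkbib (0.090) at 6 h and for Nfkb1 (-0.063) and Tnfaip3 (-0.046) at 48 h. Upper-quartile scaling and the lowess correction also turned Rela and Relb, and the lowess correction turned Nfkb1. The WT counting intervals of these 5 values included 0. The signs for Tnfaip3 at 24 h stayed opposite under all 5 alternatives, but its Arntl-/- interval included 0 (-0.13 to 0.02).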

How the results depend on the processing

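Counts of members past 1.5-fold were within 1.5 times the reported count in 46 of 50 recomputations. The exceptions were Arntl-/- BMDMs at 6 h, where the count of 1 became 0 with FPKM as deposited, upper-quartile scaling and the lowess correction (Nfkbia at log2 0.53, 0.55 and 0.42), and the genotypes at 48 h, where 2 became 1 with FPKM as deposited. Further single calls at the threshold moved: with FPKM as deposited Relb and Nfkbib at 24 h (0.52 and 0.56) and Nfkbiz at 48 h (0.45) lost it in Arntl-/- BMDMs, and Rel at 48 h gained it (-0.65). Upper-quartile scaling and the lowess correction also lost Relb (0.58 and 0.56). Of 100 log2 ratios, 35 moved beyond their counting interval with FPKM as deposited, 23 with the lowess correction, 3 with upper-quartile scaling and 0 with either pseudocount, and the cause was not tested. With FPKM as deposited the median of all genes was 0.13 in WT at 6 h, -0.13 in WT at 48 h, -0.18 in Arntl-/- BMDMs at 48 h and -0.13 between genotypes at 6 h. The share of all genes that rose was then 9.87% of 10.9% changed in WT at 6 h (5.39% of 8.97% as reported), 9.81% of 30.1% in WT at 48 h, 2.37% of 6.94% and 10.1% of 34.3% in Arntl-/- BMDMs at 6 and 48 h, and 0.676% of 5.7% between genotypes at 6 h (2.03% of 4.69%). Without a filter on low values 26.9% of genes passed 1.5-fold in WT at 6 h and 24.5% with FPKM of at least 1, and between genotypes at 0 h 23.3% and 21.6%. Depth limits Rel most, with 111 reads in WT at 48 h.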
